A study of Mus musculus with 20 samples.

Results

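The expression of 10 genes for the storage of fatty acids in lipid droplets was read in BV-2 microglia, an immortalised mouse microglial cell line. The rule lists the genes by symbol and uses no measured value, though the list was drawn up with earlier results of these data known. The genes were *Plin2*, *Hilpda*, *Lpl*, *Fabp4*, *Fabp5*, *Acsl1*, *Dgat1*, *Dgat2*, *Soat1* and *Pnpla2*. Each matched 1 of the 55487 gene identifiers in the count table, and all 10 were among the 12799 genes with enough counts to be tested. RNA-seq libraries came from 20 cultures in 4 groups of 5: young untreated, aged untreated, young LPS treated and aged LPS treated. LPS, a bacterial lipopolysaccharide that activates microglia, was given at 100 ng/ml for 6 hours, and the genotype of every culture is given as WT. Young cells were at a low passage. Aged cells were the same line after long-term cultivation, frozen in aliquots and thawed together with the young ones, so age here is time in culture and not the age of an animal. How many separate long-term cultures the 5 aged samples go back to is not given in the sources used here, so p-values measure only the spread between these cultures. Each of the 5 batches held 1 culture of every group, and cultures are named below by batch number.

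Lipid droplets are organelles with a core of triglycerides and cholesteryl esters under a single layer of phospholipids and coat proteins. Fatty acids set free from lipoproteins or taken up by the cell are carried by binding proteins, activated to acyl-CoA by acyl-CoA synthetases and esterified by acyltransferases, and lipases release them again. In microglia, droplets are known to build up with age and on exposure to inflammatory stimuli. The transcripts measured here do not show how much lipid the cells stored.

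Total counts ranged from 11371508 to 16829292 per library. Levels are CPM, counts relative to the library size, here scaled by TMM, a normalization that assumes that most genes do not change. Of 13 microglia and macrophage markers, *Sall1* was at or under the floor of 3 counts in all libraries and *P2ry12* in all aged LPS-treated ones, and the other 11 were above it in a library of every group. Their summed level was 2677 to 3862 CPM in young untreated, 2201 to 3396 in aged untreated, 2901 to 4159.9 in young LPS-treated and 2418 to 3646 in aged LPS-treated cultures. Of 7 adipocyte markers, *Retn* was the only one above the floor in any library, and their summed level stayed at or below 0.619 CPM. Markers of astrocytes, neurons and oligodendrocytes summed to at most 1.55, 0.577 and 1.78 CPM. The 8 genes listed to check the treatment summed to 105 to 213 CPM in young untreated and 63.7 to 85.7 in aged untreated cultures. With LPS the sum was 5363 to 7865 CPM in young cells, against 3021 to 4275 in aged ones. Young untreated culture 1 held the value of 213 CPM, apart from the other young untreated cultures, and calls of named genes that changed without it are given as such.

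All 10 genes are protein-coding (GRCm38, GENCODE annotation), and the counts are sums over their exons. *Plin2* (ENSMUSG00000028494) lies at chr4:86648386-86670060 on the minus strand and *Hilpda* (ENSMUSG00000043421) at chr6:29272488-29275446 on the plus strand. *Lpl* (ENSMUSG00000015568) lies at chr8:68880491-68907448 on the plus strand and *Acsl1* (ENSMUSG00000018796) on the same chromosome at chr8:46471037-46536051 on the plus strand. *Fabp5* (ENSMUSG00000027533, chr3:10012548-10016607 on the plus strand) and *Fabp4* (ENSMUSG00000062515, chr3:10204088-10208576 on the minus strand) are neighbouring members of 1 gene cluster on chromosome 3. *Dgat1* (ENSMUSG00000022555) lies at chr15:76502015-76511953 on the minus strand, and *Dgat2* (ENSMUSG00000030747) at chr7:99153658-99182719 on the minus strand. *Soat1* (ENSMUSG00000026600) lies at chr1:156424525-156474331 on the minus strand and *Pnpla2* (ENSMUSG00000025509) at chr7:141455198-141460743 on the plus strand. *Gm45244*, on the opposite strand of *Acsl1*, shares 1039 exon bases with it and had at most 1 count in a library. The pseudogene *Fabp5l2* had at most 2 counts. The lowest count of any of the 10 genes in a library was 56, for *Hilpda*.

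Per kilobase of the principal transcript, *Lpl* and *Fabp5* had the highest levels in every group and *Hilpda* or *Dgat1* the lowest. In young untreated cultures *Lpl* was at 462 ± 55.2 CPM per kb (mean ± SD, n = 5) and *Fabp5* at 407 ± 42.3, and their ranges overlapped. *Soat1* followed at 62.4 ± 4.64 CPM per kb, *Plin2* at 51.0 ± 7.54, *Fabp4* at 47.2 ± 6.81 and *Pnpla2* at 45.3 ± 5.03. These 4 genes overlapped from each to the next, while the next gene, *Acsl1* at 24.9 ± 1.13 CPM per kb, lay below all of them. *Dgat1* and *Dgat2* stood at 15.2 ± 0.955 and 14.1 ± 2.13 CPM per kb with overlapping ranges, and *Hilpda* stood lowest at 6.01 ± 1.87. After LPS the order differed. *Fabp4* (119 ± 16.3 CPM per kb) and *Acsl1* (81.5 ± 10.3) lay above *Soat1* (57.1 ± 2.31) in young cultures with no overlap, and *Dgat1* was last at 8.30 ± 0.802. In aged LPS-treated cultures *Acsl1* (58.9 ± 7.84 CPM per kb) and *Soat1* (58.9 ± 1.94) overlapped. In aged untreated cultures *Lpl* (553 ± 25.0 CPM per kb) did not overlap *Fabp5* (366 ± 46.1). The order depends on the length chosen: per kilobase of all merged exons, an alternative added after the annotation was seen, *Fabp4* fell from rank 3 to rank 7 in young LPS-treated cultures, since the merged exons of its annotated transcripts cover all 4489 bases from its start to its end.

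**Figure D1:**
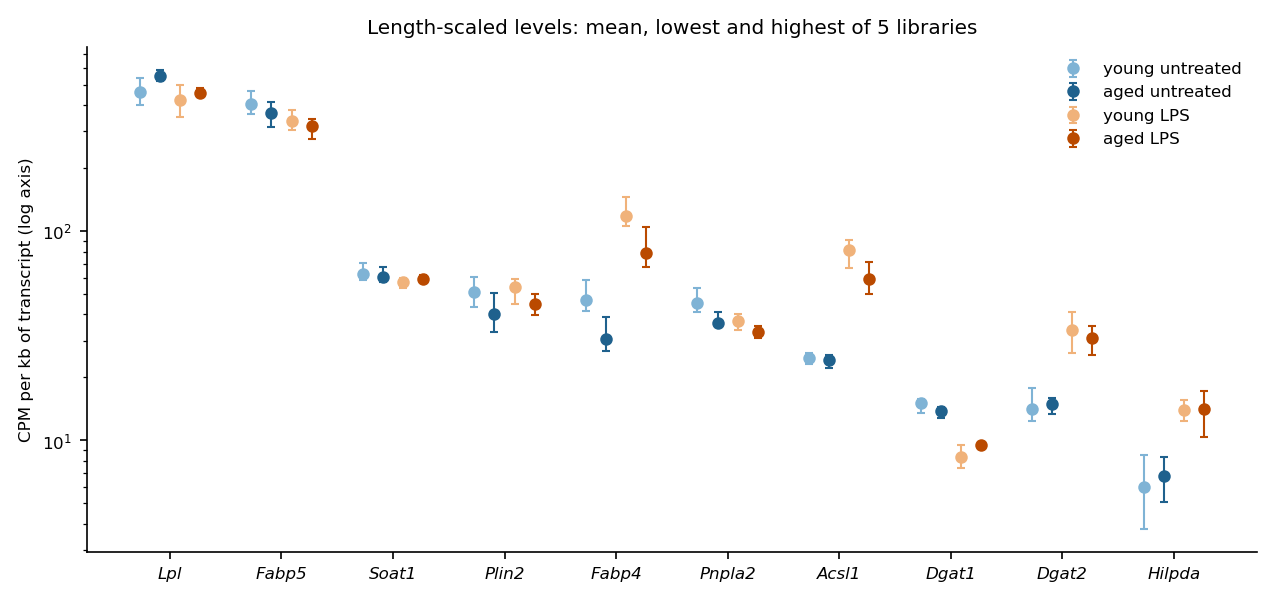
Mean CPM per kilobase of the principal transcript (log axis) for the 10 genes in the 4 groups, with bars from the lowest to the highest of 5 libraries. *Lpl* and *Fabp5* stand above the other 8 genes in every group, and *Fabp4*, *Acsl1*, *Dgat2* and *Hilpda* stand higher in both LPS-treated groups than in the untreated ones.

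The 250 bases before the start site are shown for *Acsl1* and *Hilpda*, which rose with LPS in both ages, and for *Plin2*, for which no change with LPS was called (RefSeq, GRCm38.p6, each 5′ to 3′ on the strand of its gene, with both start sites of *Hilpda*, whose windows overlap, and the more upstream of 2 for *Acsl1*). Windows were found for 5 of the 10 genes, the other two being *Soat1* and *Pnpla2*, and none for *Lpl*, *Fabp4*, *Fabp5*, *Dgat1* and *Dgat2*. Capitals mark matches to the letters searched on both strands, which follow the sequences.
Acsl1, chr8:46470787-46471036, plus strand: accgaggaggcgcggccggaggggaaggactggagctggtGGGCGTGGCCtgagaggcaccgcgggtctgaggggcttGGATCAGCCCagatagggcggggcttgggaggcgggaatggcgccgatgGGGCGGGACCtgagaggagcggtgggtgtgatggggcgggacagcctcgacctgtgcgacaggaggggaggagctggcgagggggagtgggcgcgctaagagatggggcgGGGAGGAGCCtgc
Hilpda upstream start, chr6:29272238-29272487, plus strand: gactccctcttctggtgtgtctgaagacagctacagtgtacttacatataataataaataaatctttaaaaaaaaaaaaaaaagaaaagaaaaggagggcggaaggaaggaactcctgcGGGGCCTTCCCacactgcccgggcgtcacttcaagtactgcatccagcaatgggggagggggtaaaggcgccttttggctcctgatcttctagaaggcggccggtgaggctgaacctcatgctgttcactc
Hilpda downstream start, chr6:29272376-29272625, plus strand: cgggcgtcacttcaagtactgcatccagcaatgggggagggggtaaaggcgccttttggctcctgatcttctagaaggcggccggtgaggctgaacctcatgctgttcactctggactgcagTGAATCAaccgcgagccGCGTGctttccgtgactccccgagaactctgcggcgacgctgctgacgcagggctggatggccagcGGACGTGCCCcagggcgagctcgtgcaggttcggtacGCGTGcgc
Plin2, chr4:86670060-86670309, minus strand: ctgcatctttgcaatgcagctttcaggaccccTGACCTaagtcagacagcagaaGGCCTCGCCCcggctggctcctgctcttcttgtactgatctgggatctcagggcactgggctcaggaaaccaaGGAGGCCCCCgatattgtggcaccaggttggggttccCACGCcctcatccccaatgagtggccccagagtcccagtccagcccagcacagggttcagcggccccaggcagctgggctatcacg

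The letters GGG, any 5 bases and then CC, a loose form of the NF-kB site, matched 4 times in the *Acsl1* window and 2 times, in overlapping positions, in the upstream window of *Hilpda* and 1 time in its downstream one. They matched in the *Plin2* window too, 2 times. Of the windows not printed, that of *Pnpla2*, which LPS lowered in young cultures, had 7 matches. That of *Soat1* had 2 and the downstream one of *Acsl1* had 0. At least 1 match was in 45.8% of all 32851 windows of this length. ACGTG or GCGTG, the core of hypoxia response elements, matched 1 time in the *Acsl1* window, inside an NF-kB match, and 1 time in that of *Plin2*. It matched 3 times in the downstream *Hilpda* window and had no match in the upstream one. Of the windows not printed, that of *Soat1* had 1 match, and those of *Pnpla2* and the downstream start of *Acsl1* had 0. The core was in 38.6% of all windows. AGGTCA, the core bound by nuclear receptors of the PPAR family, matched 1 time in the *Plin2* window and in 14.0% of all windows. TGANTCA, the AP-1 site, matched 1 time in the downstream *Hilpda* window and in 6.75% of all windows. The letters GAAA, any 2 bases and then GAAA (interferon response, 2.98%), CACGTG (E-box, which contains the hypoxia core, 6.02%) and TATAAA (12.4%) had no match in the 4 windows printed.

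LPS raised *Acsl1*, *Fabp4*, *Dgat2* and *Hilpda* in young and in aged cultures and lowered *Dgat1* in both. *Plin2*, the main droplet coat protein of most cells, was not called changed by LPS at either age. Aged cultures held less *Fabp4* than young ones, with or without LPS, and less *Acsl1* when both were treated. In young cultures LPS raised 4 and lowered 4 of the 10 genes (edgeR's quasi-likelihood test, adjusted p below 0.05 over all genes tested). Among all genes, 31.2% were called higher and 33.5% lower in this comparison, and counts of 4 and 4 of 10 lie close to these shares. In aged cultures 4 were raised and 2 lowered, beside 27.5% and 26.9% of all genes, again close. Between untreated cultures, 1 was higher and 3 were lower in aged than in young ones, beside 3.71% and 7.81% of all genes. Between LPS-treated cultures, 1 was higher and 2 were lower in aged ones, beside 14.0% and 15.0%. The LPS response was called different between the ages for 2 genes: the fall of *Dgat1* and the rise of *Acsl1* were both smaller in aged cultures. Both calls were near the threshold and were lost with 17 (*Dgat1*) and 13 (*Acsl1*) of the 20 libraries left out singly. As a signed difference, aged minus young, 1 was higher and 1 lower, beside 4.12% of all genes called higher and 2.27% called lower. The median log2 fold change of the 10 genes was -0.022 for LPS in young and 0.061 in aged cultures, against -0.011 and 0.00047 over all genes tested. It was -0.089 for aged against young untreated and -0.10 for aged against young LPS-treated cultures, against -0.014 and 0.0084 over all genes.

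These comparisons share samples: each group enters 2 of the comparisons of groups and the difference of the LPS responses. TMM factors were 0.891 to 0.973 in LPS-treated and 1.04 to 1.08 in untreated libraries. With library sizes alone the median of all genes moved to -0.23 for LPS in young and -0.16 in aged cultures, so the changes given here are relative to the typical gene. The share of calls that were higher then went from 48.2% to 27.3% for LPS in young, from 50.6% to 28.4% in aged, from 32.2% to 42.2% for aged against young untreated and from 48.3% to 70.1% for aged against young LPS-treated cultures. For the difference of the LPS responses it went from 64.4% to 81.3%. In bulk RNA, fewer cells of a kind and less RNA of a gene per cell cannot be told apart.

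**Figure D2:**
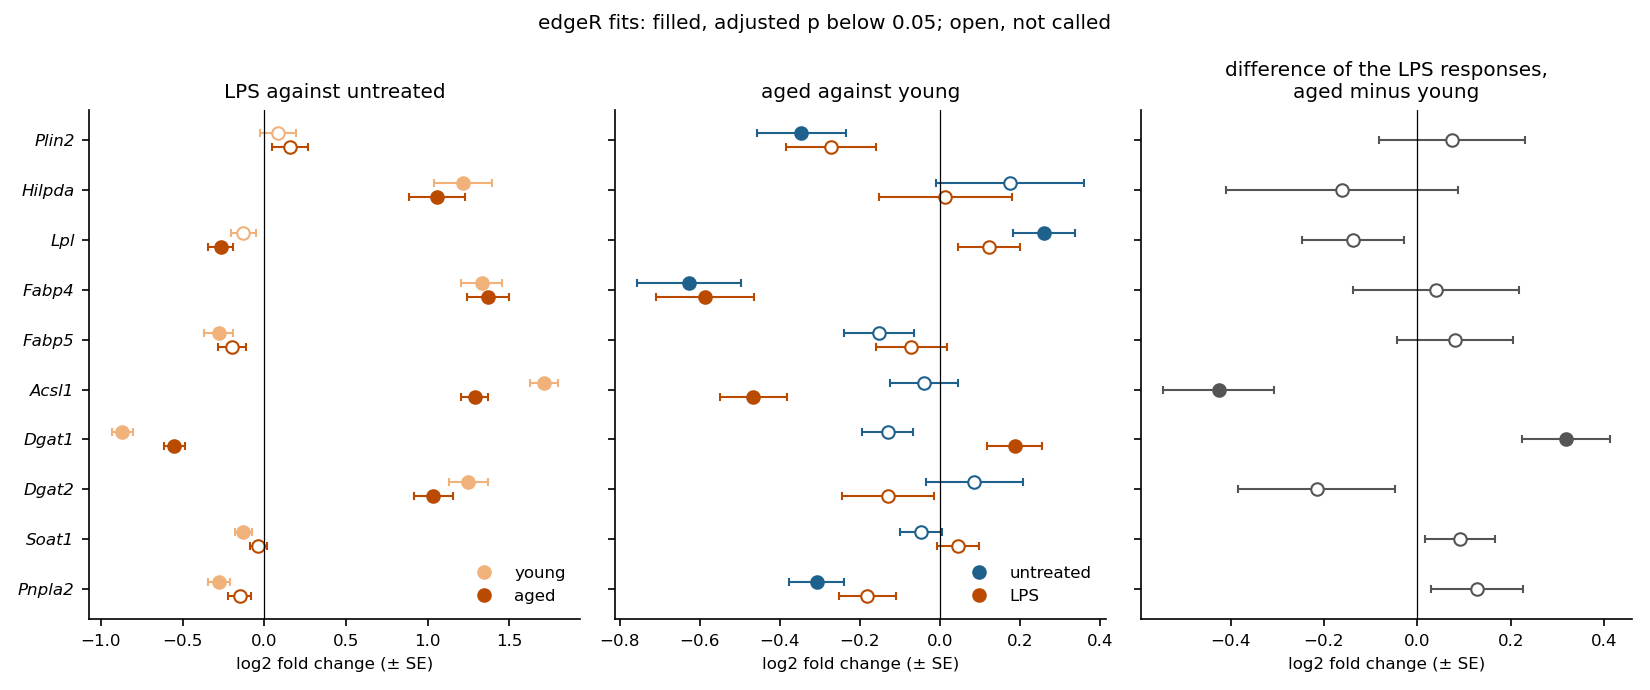
Log2 fold change of each gene (points) with its SE (bars) for LPS against untreated, aged against young, and the difference of the LPS responses, from edgeR fits with 5 libraries per group. *Acsl1*, *Fabp4*, *Dgat2* and *Hilpda* lie above 1 on the log2 scale for LPS in both ages, and *Dgat1* lies below 0 in both.

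*Plin2* encodes perilipin 2, which coats droplets and limits the access of lipases to them. Its level was 115, 107, 93.7, 83.5 and 82.5 CPM in young untreated cultures 1 to 5 and 67.1, 80.4, 96.0, 62.2 and 72.6 CPM in aged untreated ones. Young LPS-treated cultures held 84.5, 112, 96.0, 109 and 107 CPM and aged LPS-treated ones 90.1, 77.0, 85.3, 74.7 and 94.5 CPM. Untreated groups overlapped through aged culture 3, which lay above 3 of the 5 young cultures. *Plin2* was lower in aged than in young untreated cultures (log2 fold change -0.35 ± 0.11 (SE), edgeR adjusted p = 0.0451), and in 4 of 5 batches. The call was close to the threshold and was lost without any one of young untreated cultures 1, 2 or 3, aged untreated cultures 1, 2, 4 or 5, or young LPS-treated cultures 3 or 5 (edgeR adjusted p 0.0508 to 0.135), with library sizes alone (edgeR adjusted p = 0.0543) and with only the groups compared (edgeR adjusted p = 0.0640). With LPS the value for aged against young was -0.27 ± 0.11 (edgeR adjusted p = 0.0717), which passed without any one of aged untreated culture 3, or young LPS-treated culture 1 (edgeR adjusted p 0.0305 to 0.0420). It also passed with DESeq2 (adjusted p = 0.0450), DESeq2 with the replicate block (adjusted p = 0.0363) and edgeR on only the groups compared (adjusted p = 0.0400). LPS gave 0.083 ± 0.11 in young (edgeR adjusted p = 0.528) and 0.16 ± 0.11 in aged cultures (edgeR adjusted p = 0.246) with TMM, and -0.13 and -0.0024 with library sizes alone. The value in aged cultures passed without aged untreated culture 3 (edgeR adjusted p = 0.0439).

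*Hilpda* encodes a small droplet protein that inhibits the lipase encoded by *Pnpla2* and is known as a target of hypoxia-inducible factors. Without LPS it stood at 8.34, 4.92, 7.12, 3.69 and 5.45 CPM in young and 4.97, 6.65, 8.15, 7.90 and 5.45 CPM in aged cultures. With LPS it stood at 14.0, 12.9, 15.4, 14.2 and 12.2 CPM in young and 12.5, 10.2, 17.0, 14.2 and 15.2 CPM in aged cultures. Every LPS-treated culture was above every untreated one. *Hilpda* rose 2.33-fold in young (log2 fold change 1.22 ± 0.18 (SE), edgeR adjusted p = 2.73e-06) and 2.08-fold in aged cultures (log2 fold change 1.06 ± 0.17 (SE), edgeR adjusted p = 2.02e-05). Aged and young cultures overlapped at both treatments, with log2 fold changes of 0.17 ± 0.18 untreated (edgeR adjusted p = 0.615) and 0.013 ± 0.17 with LPS (edgeR adjusted p = 0.964).

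**Figure D3:**
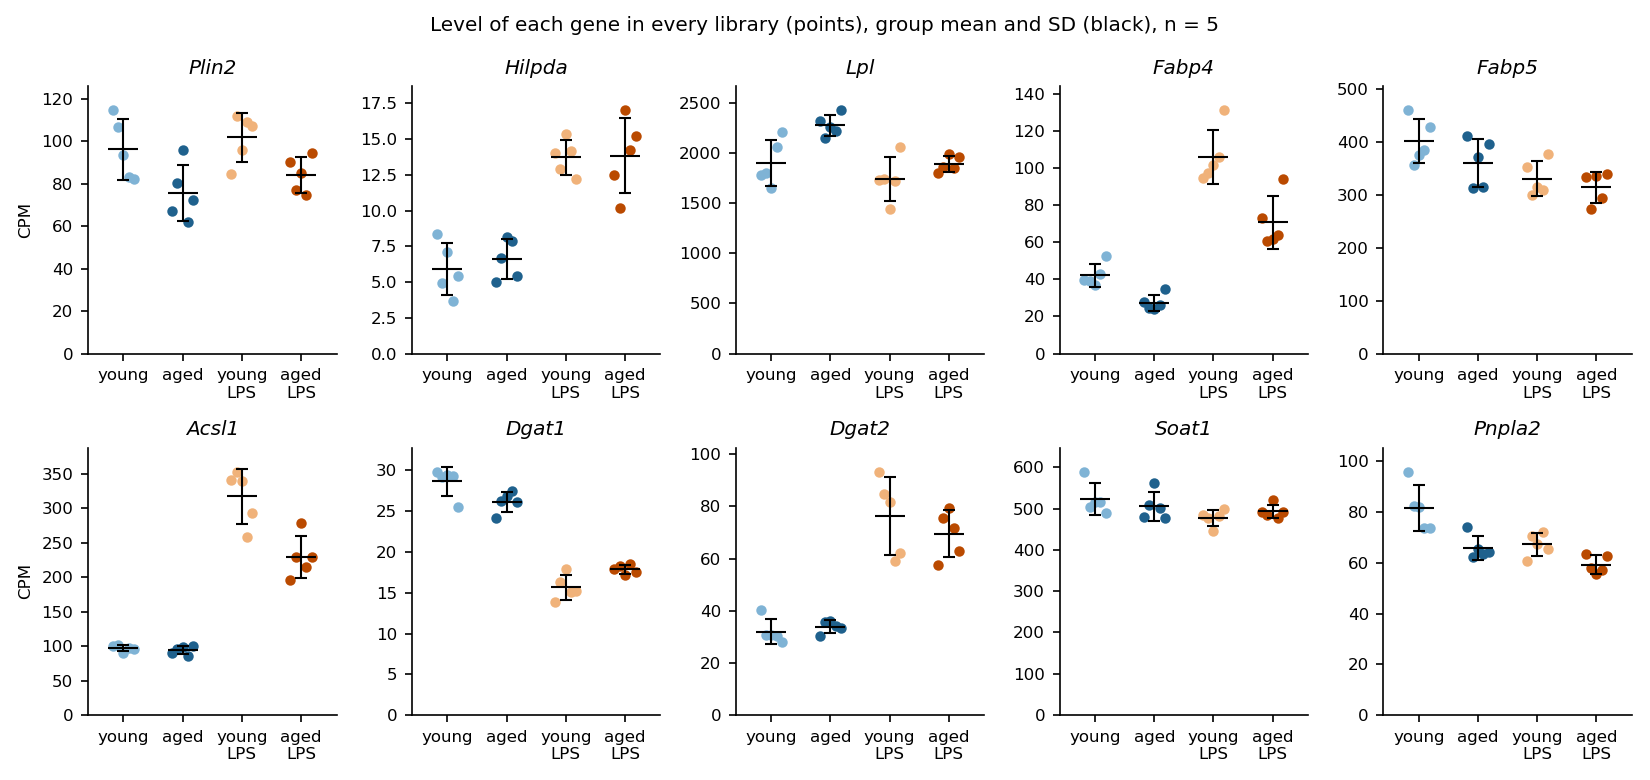
CPM of each of the 10 genes in every library (points), with the group mean and SD in black, for young and aged cultures with and without LPS; axes start at 0. The LPS-treated cultures lie apart from the untreated ones for *Hilpda*, *Fabp4*, *Acsl1*, *Dgat1* and *Dgat2*, and the 4 groups overlap for *Plin2*. The share of all genes that lie apart with LPS was not computed.

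*Lpl* encodes lipoprotein lipase, which frees fatty acids from the triglycerides of lipoproteins. Young untreated cultures held 1778, 1804, 1654, 2059 and 2211 CPM and aged untreated ones 2318, 2156, 2265, 2221 and 2427 CPM. The LPS-treated values were 1731, 1742, 1446, 1719.6 and 2060.3 CPM in young and 1802, 1864, 1988, 1848 and 1965 CPM in aged cultures. Young cultures spread more widely than aged ones, with SDs of 227 against 103 CPM untreated and 218 against 79.5 CPM with LPS. *Lpl* exceeded the young level in all 5 aged untreated batches (log2 fold change 0.26 ± 0.078 (SE), edgeR adjusted p = 0.0317), and the ranges overlapped through young culture 5. That call was lost without any one of young untreated cultures 1, 2 or 3, or aged untreated cultures 1, 4 or 5 (edgeR adjusted p 0.0531 to 0.103). LPS lowered *Lpl* in aged cultures, where the groups did not overlap (log2 fold change -0.27 ± 0.078 (SE), edgeR adjusted p = 0.00591). In young cultures the value was -0.13 ± 0.078 (edgeR adjusted p = 0.154), lower in 5 of 5 batches, and it passed without young LPS-treated culture 5 (edgeR adjusted p = 0.0243). With library sizes alone it was -0.35 and called (edgeR adjusted p = 4.05e-04). The difference between both responses was -0.14 ± 0.11 (edgeR adjusted p = 0.555). Of the summed CPM of the 10 genes, *Lpl* held 54.6% to 63.3% in young untreated, 63.7% to 66.8% in aged untreated, 49.4% to 56.9% in young LPS-treated and 57.4% to 59.2% in aged LPS-treated cultures.

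*Fabp4*, a carrier of fatty acids best known from adipocytes and macrophages, was the gene of the 10 in which age and LPS both left groups apart. Its level was 39.6, 38.9, 37.2, 43.1 and 52.5 CPM in young and 27.7, 24.5, 24.1, 26.0 and 34.7 CPM in aged untreated cultures. After LPS it was 94.7, 97.5, 102, 106 and 131 CPM in young and 73.1, 60.5, 61.9, 64.0 and 94.4 CPM in aged cultures. Each of the 4 groups stood apart from the other 3, with the lowest young LPS-treated culture just above the highest aged one. The share of all genes tested whose groups stood apart in this way was not computed. *Fabp4* rose with LPS 2.52-fold in young (log2 fold change 1.33 ± 0.13 (SE), edgeR adjusted p = 3.29e-09) and 2.59-fold in aged cultures (log2 fold change 1.37 ± 0.13 (SE), edgeR adjusted p = 5.65e-09). It was lower in aged than in young cultures in 5 of 5 batches, untreated (log2 fold change -0.63 ± 0.13 (SE), edgeR adjusted p = 0.00294) and with LPS (log2 fold change -0.59 ± 0.12 (SE), edgeR adjusted p = 8.79e-04). The difference of the LPS responses was 0.040 ± 0.18 on the log2 scale (edgeR adjusted p = 0.950). The 4 calls held without any single library. The adipocyte markers *Adipoq*, *Plin1* and *Cidec* were at or under the floor in every group.

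*Fabp5*, its neighbour in the genome and a fatty acid carrier of epidermis and macrophages, was lower with LPS in young cultures. Young untreated cultures held 459.8, 357, 376, 386 and 428 CPM and aged untreated ones 410.5, 312, 372, 315 and 396 CPM. LPS-treated cultures held 353, 301, 315, 309 and 377 CPM when young and 333, 273, 335, 294 and 339 CPM when aged. The groups overlapped, but the LPS-treated culture was the lower one in every batch at both ages. LPS lowered *Fabp5* in young cultures (log2 fold change -0.28 ± 0.088 (SE), edgeR adjusted p = 0.00858). In aged cultures the value was -0.20 ± 0.088 (edgeR adjusted p = 0.0634), and it passed with the batch as a replicate block (edgeR adjusted p = 8.88e-04) and without any one of aged untreated cultures 2 or 4 (edgeR adjusted p 0.0265 to 0.0288). Untreated aged cultures were lower than young ones in 5 of 5 batches (-0.15 ± 0.088, edgeR adjusted p = 0.291), and this too passed with the replicate block (edgeR adjusted p = 0.0191). The ratio of *Fabp4* to *Fabp5* CPM within a library, chosen after the values were seen and not tested, was 0.0862 to 0.123 in young untreated and 0.0647 to 0.0878 in aged untreated cultures. LPS-treated cultures gave 0.268 to 0.348 when young and 0.185 to 0.279 when aged.

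*Acsl1* encodes a long-chain acyl-CoA synthetase, which activates fatty acids for esterification or oxidation. It had the largest LPS response of the 10 genes in young cultures. Untreated levels were 100.1, 102, 90.3, 97.1 and 95.3 CPM in young and 90.4, 95.5, 98.8, 86.1 and 100.0 CPM in aged cultures, and these groups overlapped. LPS-treated levels were 341, 353, 340.4, 259 and 294 CPM in young and 196, 229, 279, 215 and 229 CPM in aged cultures. All treated cultures were above all untreated ones, and aged LPS-treated culture 3 was the only one of its group above the lowest young LPS-treated culture. *Acsl1* rose 3.28-fold in young (log2 fold change 1.71 ± 0.086 (SE), edgeR adjusted p = 6.55e-14) and 2.44-fold in aged cultures (log2 fold change 1.29 ± 0.085 (SE), edgeR adjusted p = 1.57e-11). With LPS it was lower in aged cultures in 5 of 5 batches (log2 fold change -0.47 ± 0.083 (SE), edgeR adjusted p = 1.90e-04), and that call held without any single library. The difference of the LPS responses itself was -0.43 ± 0.12 (edgeR adjusted p = 0.0330), the response being smaller in the aged culture in 5 of 5 batches. That call was lost without any one library other than young untreated cultures 1 and 2, aged untreated cultures 1 and 4, young LPS-treated cultures 4 and 5, and aged LPS-treated culture 3 (edgeR adjusted p 0.05004 to 0.0753), while the difference stayed between -0.50 and -0.37 without any single library. The call was also lost without replicate 1, 2 or 5 (edgeR adjusted p = 0.114, 0.209 and 0.124). The 8 genes listed to check the treatment also summed to less in aged than in young LPS-treated cultures, as given above, and their part in this difference was not tested.

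Triglyceride synthesis ends with a diacylglycerol acyltransferase, and its 2 forms, which are unrelated in sequence, moved in opposite directions with LPS. *Dgat1* was at 29.8, 29.2, 29.4, 29.4 and 25.5 CPM in young and 24.2, 26.3, 26.9, 27.4 and 26.1 CPM in aged untreated cultures. After LPS it was at 13.9, 16.3, 17.9, 15.1 and 15.2 CPM in young and 17.9, 18.3, 17.2, 18.6 and 17.6 CPM in aged cultures. The treated and untreated cultures did not overlap at either age. *Dgat1* fell with LPS in young (log2 fold change -0.87 ± 0.067 (SE), edgeR adjusted p = 1.16e-10) and aged cultures (log2 fold change -0.55 ± 0.066 (SE), edgeR adjusted p = 2.72e-07). The fall was smaller in aged cultures in 5 of 5 batches, and the difference of the responses was 0.32 ± 0.094 (edgeR adjusted p = 0.0452). That call was lost without any one library other than young untreated culture 5, young LPS-treated culture 3, and aged LPS-treated culture 3 (edgeR adjusted p 0.0502 to 0.0850). It was also lost without replicate 1, 2, 4 or 5 (edgeR adjusted p 0.0846 to 0.219). With LPS *Dgat1* was higher in aged than in young cultures (log2 fold change 0.19 ± 0.069 (SE), edgeR adjusted p = 0.0468), in 4 of 5 batches and with overlapping ranges, a call that was lost without any one library other than young untreated cultures 1 and 5, aged untreated culture 1, young LPS-treated culture 3, and aged LPS-treated culture 3 (edgeR adjusted p 0.0510 to 0.118).

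*Dgat2* was at 40.4, 30.6, 30.7, 30.2 and 28.0 CPM in young and 30.2, 35.8, 36.2, 34.1 and 33.3 CPM in aged untreated cultures. After LPS it was at 93.3, 84.8, 81.8, 58.9 and 62.0 CPM in young and 57.7, 75.6, 79.3, 71.8 and 63.1 CPM in aged cultures. Treated cultures were all above untreated ones, and young and aged cultures overlapped at both treatments. *Dgat2* rose 2.38-fold in young (log2 fold change 1.25 ± 0.12 (SE), edgeR adjusted p = 4.57e-09) and 2.05-fold in aged cultures (log2 fold change 1.03 ± 0.12 (SE), edgeR adjusted p = 1.41e-07). Values for aged against young were 0.086 ± 0.12 untreated (edgeR adjusted p = 0.725) and -0.13 ± 0.12 with LPS (edgeR adjusted p = 0.446). The ratio of *Dgat2* to *Dgat1* CPM, chosen after the values were seen and not tested, was 1.03 to 1.35 in young and 1.24 to 1.36 in aged untreated cultures. With LPS it was 3.92 to 6.70 in young and 3.22 to 4.62 in aged cultures, above every untreated culture. The ratio is not scaled by length and is read between groups only. In batch 1 the ratio was 6.70 in the young LPS-treated culture, the highest of all, and 3.22 in the aged one, the lowest of the treated ones.

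**Figure D4:**
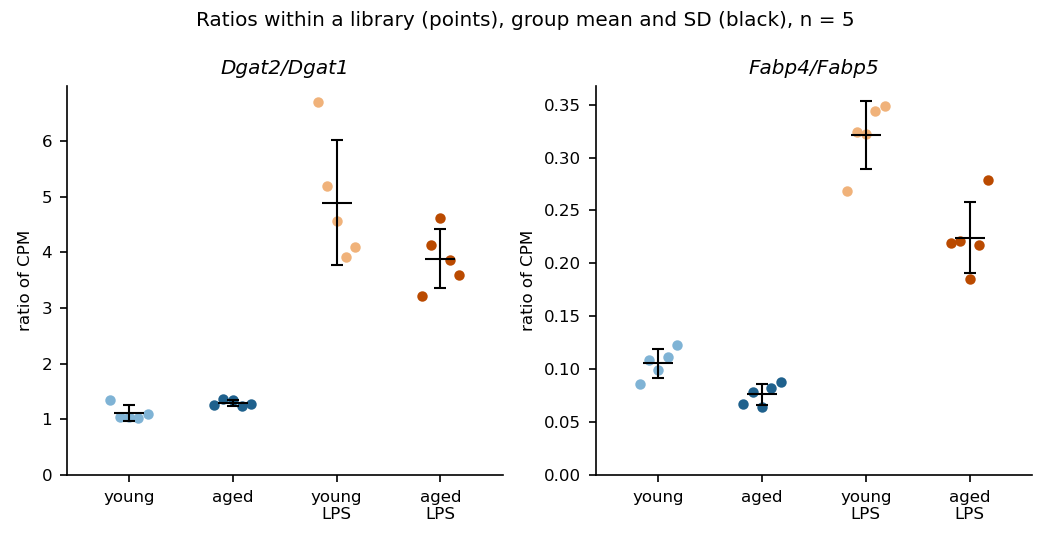
Ratio of *Dgat2* to *Dgat1* CPM (left) and of *Fabp4* to *Fabp5* CPM (right) within each library (points), with the group mean and SD in black, n = 5; axes start at 0. All LPS-treated libraries lie above all untreated ones in both panels, and within a treatment most aged libraries lie below all young ones for *Fabp4* to *Fabp5*.

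*Soat1* encodes the enzyme that esterifies cholesterol for storage in droplets. It varied least of the 10 genes, with group means of 522 ± 38.8 CPM (mean ± SD, n = 5) in young and 506 ± 34.7 CPM in aged untreated cultures. With LPS the means were 478 ± 19.3 CPM in young and 493 ± 16.2 CPM in aged cultures, and all groups overlapped. Young untreated culture 1 held 589 CPM, apart from the other 4. *Soat1* was called lower with LPS in young cultures (log2 fold change -0.13 ± 0.053 (SE), edgeR adjusted p = 0.0385), a call lost without any one of young untreated culture 1, or young LPS-treated cultures 2 or 3 (edgeR adjusted p 0.0604 to 0.150). DESeq2's Wald test did not make it (adjusted p = 0.0618). In aged cultures the value was -0.036 ± 0.053 (edgeR adjusted p = 0.591), and for aged against young it was -0.047 ± 0.053 untreated (edgeR adjusted p = 0.642) and 0.045 ± 0.053 with LPS (edgeR adjusted p = 0.579).

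*Pnpla2* encodes adipose triglyceride lipase, which takes the initial step in breaking down stored triglycerides. Young untreated cultures held 95.8, 82.3, 82.1, 73.6 and 73.8 CPM and aged untreated ones 74.1, 62.4, 65.3, 63.3 and 64.1 CPM. LPS-treated cultures held 60.7, 70.5, 67.4, 72.1 and 65.4 CPM when young and 63.6, 57.8, 55.4, 57.3 and 62.5 CPM when aged. Aged untreated cultures were the lower ones in every batch, and the ranges overlapped only through aged culture 1. *Pnpla2* was lower in aged than in young untreated cultures (log2 fold change -0.31 ± 0.069 (SE), edgeR adjusted p = 0.00553), and this held without any single library. LPS lowered it in young cultures, with no overlap (log2 fold change -0.28 ± 0.070 (SE), edgeR adjusted p = 0.00137). In aged cultures LPS gave -0.15 ± 0.070 (edgeR adjusted p = 0.0739), lower in 5 of 5 batches, which passed without any one of young untreated culture 1, or aged LPS-treated culture 1 (edgeR adjusted p 0.0387 to 0.0394). For aged against young with LPS the value was -0.18 ± 0.071 (edgeR adjusted p = 0.0580). It passed with the replicate block (edgeR adjusted p = 0.0415) and without any one of young untreated culture 1, aged untreated culture 1, young LPS-treated culture 1, or aged LPS-treated culture 1 (edgeR adjusted p 0.0290 to 0.0470). *Hilpda*, whose product inhibits this lipase, rose with LPS at both ages, as given above.

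Of 67 other genes of droplet and fatty acid storage, 43 were tested. LPS raised 14 and lowered 14 of them in young cultures and raised 13 and lowered 9 in aged ones, beside the shares of all genes given above. Their median log2 fold change was -0.011 and -0.020. In aged against young untreated cultures 1 was higher and 6 were lower, beside 3.71% and 7.81% of all genes. With LPS 5 were higher and 9 lower, beside 14.0% and 15.0%. With the replicate block, 3 were higher and 8 lower between untreated cultures (edgeR), beside 768 and 1436 of all 12799 genes. *Plin1*, *Plin4*, *Plin5*, *Cidec*, the inhibitor *G0s2* and the lipase *Mgll* were among the 24 genes with too few counts to test. In the lists below, *Rab18*, *Slc27a1*, *Acsl3*, *Acsl4*, *Acsl5*, *Gpam*, *Lipe*, *Pnpla7*, *Hif1a*, *Nr1h3*, *Tfeb*, *Epas1* and *Srebf1* were picked as examples after their values were seen, and the others follow the rule stated for named genes.

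Among coat and assembly genes, 8 of 16 were tested. LPS raised 3 and lowered 1 of them in young cultures and raised 2 and lowered 2 in aged ones, with the shares of all genes as above. *Rab18*, a GTPase of the droplet surface, was raised at both ages (0.47 on the log2 scale in young and 0.34 in aged cultures). *Hsd17b11*, a droplet-bound dehydrogenase, was raised in young (0.27) and lowered in aged cultures (-0.22), and these responses differed (log2 fold change -0.50 ± 0.13 (SE), edgeR adjusted p = 0.0212). The difference was not called without replicate 2, 3 or 5 (edgeR adjusted p = 0.116, 0.0614 and 0.0962). The fall in aged cultures was lost without any one of young untreated cultures 3 or 5, aged untreated cultures 1, 2, 3 or 5, or aged LPS-treated cultures 2, 4 or 5 (edgeR adjusted p 0.0504 to 0.126), and the rise in young ones was 0.054 with library sizes alone (edgeR adjusted p = 0.608). With LPS it was lower in aged cultures, 17.8 ± 1.89 against 28.2 ± 3.82 CPM (log2 fold change -0.66 ± 0.092 (SE), edgeR adjusted p = 1.19e-05). *Tmem159*, the seipin partner also known as *Ldaf1*, was lower in aged than in young untreated cultures (log2 fold change -0.50 ± 0.14 (SE), edgeR adjusted p = 0.0247), a call lost without any one of young untreated cultures 1, 2 or 3, or aged untreated cultures 2 or 4 (edgeR adjusted p 0.0550 to 0.0757).

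For fatty acid entry and binding, 9 of 13 listed genes were tested, and LPS raised 4 and lowered 3 in young and raised 5 and lowered 0 in aged cultures, with the same shares of all genes. The largest change was that of *Fabp3*, a further carrier of the family. It stood at 3.15 ± 0.483 CPM in young and 6.44 ± 1.17 CPM in aged untreated cultures, and at 8.44 ± 1.22 and 12.8 ± 1.96 CPM with LPS. *Fabp3* was higher in aged than in young cultures, untreated (log2 fold change 1.03 ± 0.15 (SE), edgeR adjusted p = 1.23e-04) and with LPS (log2 fold change 0.61 ± 0.13 (SE), edgeR adjusted p = 0.00134), where *Fabp4* was lower in both. The transporter gene *Slc27a1* was raised by LPS at both ages (0.86 in young, 0.80 in aged).

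All 4 acyl-CoA synthetases tested of the 7 listed, other than *Acsl1*, were called changed by LPS in young cultures, 3 higher and 1 lower, beside 31.2% and 33.5% of all genes. In either direction, 8271 of all 12799 genes were called in this comparison. *Acsl4* (0.89), *Acsl5* (0.75) and the acetate-activating *Acss2* rose, and *Acsl3*, an enzyme of nascent droplets, fell (-1.12). In aged cultures *Acsl4* (0.77) and *Acsl5* (0.58) rose and *Acsl3* fell (-0.85). *Acss2* went from 3.69 ± 0.775 to 12.3 ± 3.79 CPM in young cultures (log2 fold change 1.75 ± 0.26 (SE), edgeR adjusted p = 4.14e-06). In aged cultures it stood at 4.29 ± 1.5 CPM untreated and 5.81 ± 2.02 CPM with LPS, and was not called (edgeR adjusted p = 0.179). Young LPS-treated culture 1 held 5.92 CPM, below the other 4, and was the one batch in which the aged LPS-treated culture was higher. The responses of *Acss2* differed between the ages (log2 fold change -1.31 ± 0.38 (SE), edgeR adjusted p = 0.0405), smaller in the aged culture in 5 of 5 batches, a call lost without any one library other than young untreated cultures 1, 4 and 5, aged untreated cultures 4 and 5, young LPS-treated culture 1, and aged LPS-treated cultures 1 and 5 (edgeR adjusted p 0.0523 to 0.0836). The call was also lost without replicate 2, 3, 4 or 5 (edgeR adjusted p 0.0719 to 0.224).

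In glycerolipid and sterol ester synthesis, 14 of 18 genes were tested, and LPS raised 3 and lowered 3 at both ages, with the same shares of all genes. *Lpin1*, a phosphatidate phosphatase that makes diacylglycerol, had the largest fall of the listed genes. It went from 24.5 ± 1.31 to 1.18 ± 0.577 CPM in young (log2 fold change -4.37 ± 0.30 (SE), edgeR adjusted p = 1.89e-11) and from 17.7 ± 6.29 to 2.63 ± 1.37 CPM in aged cultures (log2 fold change -2.73 ± 0.27 (SE), edgeR adjusted p = 9.80e-09). Its lowest count in young LPS-treated cultures was 5, near the floor of 3 counts. The falls differed (log2 fold change 1.63 ± 0.44 (SE), edgeR adjusted p = 0.0285), a call lost without any one of young LPS-treated culture 3, or aged LPS-treated culture 1 (edgeR adjusted p 0.0685 to 0.0870). That call was also lost without replicate 2, 3, 4 or 5 (edgeR adjusted p 0.0515 to 0.130). With LPS *Lpin1* was higher in aged cultures (log2 fold change 1.16 ± 0.39 (SE), edgeR adjusted p = 0.0286), a call lost without any one of young LPS-treated cultures 1 or 3, or aged LPS-treated culture 1 (edgeR adjusted p 0.0524 to 0.135), and without replicate 1, 2 or 3 (edgeR adjusted p 0.0549 to 0.112). *Agpat4*, an acyltransferase, rose in young (log2 fold change 1.70 ± 0.084 (SE), edgeR adjusted p = 5.10e-14) and aged cultures (log2 fold change 1.41 ± 0.084 (SE), edgeR adjusted p = 2.14e-12). *Lpcat2*, which remodels phospholipids, rose too (0.81 and 1.17) and was lower in aged than in young untreated cultures (log2 fold change -0.71 ± 0.11 (SE), edgeR adjusted p = 2.30e-04). *Gpam*, which starts triglyceride synthesis, fell at both ages (-0.70 and -0.55).

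Of 8 lipolysis and ester hydrolysis genes tested, LPS raised 1 and lowered 6 in young cultures, beside 31.2% and 33.5% of all genes, and raised 1 and lowered 3 in aged ones, beside 27.5% and 26.9%. The medians of their log2 fold changes were -0.40 and -0.27. The one raised was *Lipe*, the hormone-sensitive lipase (0.62 in young, 0.43 in aged). *Lipa*, the lysosomal acid lipase, stood at 544 ± 45.9 CPM in young and 423 ± 43.6 CPM in aged untreated cultures and at 464 ± 39.8 and 307 ± 35.3 CPM with LPS. It was lower in aged LPS-treated than in young LPS-treated cultures in 5 of 5 batches (log2 fold change -0.60 ± 0.081 (SE), edgeR adjusted p = 9.60e-06). The fall of *Lipa* with LPS in young cultures (-0.23) was lost without young untreated culture 1 (edgeR adjusted p = 0.0517). It was also lost without replicate 1 (edgeR adjusted p = 0.0843). *Abhd6*, a monoacylglycerol lipase, was at 0.788 ± 0.344 CPM in young and 1.71 ± 0.429 CPM in aged LPS-treated cultures (log2 fold change 1.16 ± 0.30 (SE), edgeR adjusted p = 0.00519). Its lowest count in young LPS-treated cultures was 6, near the floor of 3 counts. The fall of *Abhd6* with LPS in young cultures was lost without replicate 5 (edgeR adjusted p = 0.0713). In untreated cultures, *Lipa* (-0.36) and *Pnpla7* (-0.34) were lower in aged cells.

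**Figure D5:**
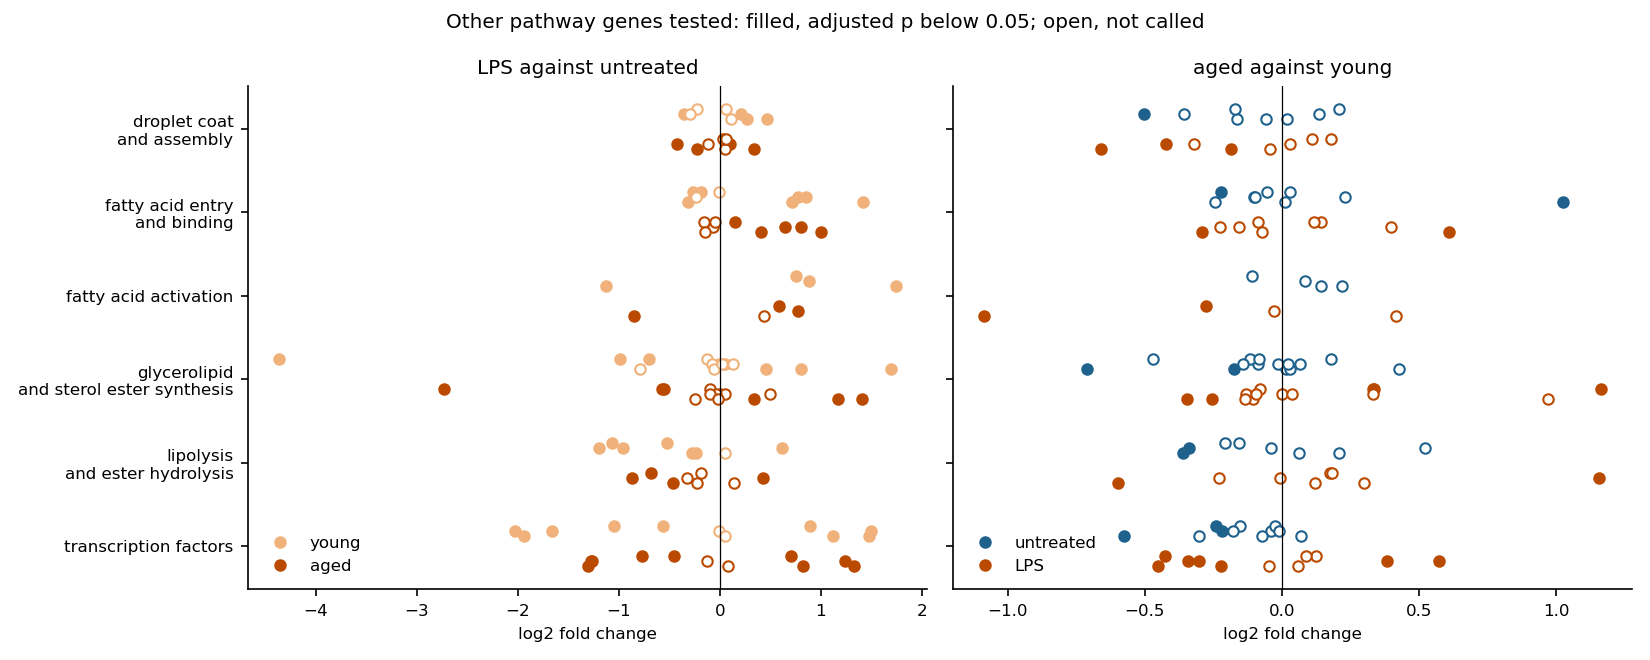
Log2 fold changes of the other pathway genes and transcription factors tested, by role, for LPS against untreated in young and aged cultures (left) and for aged against young cultures untreated and with LPS (right); filled points passed an adjusted p of 0.05 in edgeR and open ones did not. The lowest value in the left panel is *Lpin1* in both ages, and the highest in the right panel is *Fabp3* in untreated and *Lpin1* in LPS-treated cultures.

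Of 14 transcription factors known to act on these genes, 11 were tested, and *Pparg*, *Ppara* and *Ppargc1a* had too few counts. LPS raised 4 and lowered 5 of them at both ages, beside 31.2% and 33.5% of all genes in young and 27.5% and 26.9% in aged cultures. *Cebpb* (log2 fold change 1.5 ± 0.063 (SE), edgeR adjusted p = 2.76e-15 in young, log2 fold change 1.24 ± 0.062 (SE), edgeR adjusted p = 1.22e-13 in aged), *Ppard* (1.47 and 1.33), *Hif1a* (1.12 and 0.83) and *Nr1h3* (0.89 and 0.71) rose. *Rxra*, the partner of PPAR and LXR receptors, fell from 263 ± 16.1 to 64.4 ± 15.3 CPM in young and from 232 ± 19.7 to 96.0 ± 17.8 CPM in aged cultures. Its falls differed between the ages (log2 fold change 0.75 ± 0.18 (SE), edgeR adjusted p = 0.0117), a call lost without replicate 2 (edgeR adjusted p = 0.0977) or 5 (edgeR adjusted p = 0.0540). *Cebpa* fell from 163 ± 25.7 to 42.5 ± 5.79 CPM in young and from 109 ± 9.58 to 44.4 ± 6.04 CPM in aged cultures, and was lower in aged than in young untreated ones (log2 fold change -0.57 ± 0.11 (SE), edgeR adjusted p = 0.00104). *Tfeb* (-1.66 and -1.26), *Epas1* (-1.04 and -0.77) and *Srebf1* (-0.56 and -0.45) fell as well.

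The genes with the most similar pattern over the 20 libraries were found by the root-mean-square difference in log2 CPM, each gene centred on its own mean, as a description with no test. Nearest to *Acsl1*, which had a spread of 0.77 by the same measure, were *Rnf114* (0.11) and *Kremen1* (0.12). Nearest to *Fabp4* (spread 0.76) were *Tubb2a* (0.21) and *Ifi27* (0.22), and nearest to *Dgat2* (spread 0.60) were *Tm9sf4* (0.14) and *Hif1a* (0.14). *Hif1a*, the hypoxia-inducible factor, is also one of the transcription factors named above. For *Hilpda* (spread 0.64) they were *Chst11* (0.22) and *Pdlim7* (0.23), and for *Dgat1* (spread 0.37) *Tmem106b* (0.082) and *Mbnl1* (0.085). The spreads of *Plin2*, *Lpl*, *Fabp5* and *Pnpla2* were 0.24, 0.19, 0.19 and 0.19, with *Taldo1* (0.12) and *Cd300a* (0.14), *Idh3a* (0.10) and *Mrpl12* (0.11), *Aldoc* (0.088) and *Slc25a1* (0.10) and *Snx13* (0.086) and *Gipc1* (0.093) nearest. *Soat1* (spread 0.085) was nearest to *Man1b1* (0.058) and *Ndufs1* (0.060). None of the 10 genes was among the 2 nearest of another.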

How the data were processed

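RNA was measured by poly(A)-selected, stranded RNA-seq in 20 BV-2 cultures. The deposited values are raw read counts per Ensembl gene, for which the authors aligned reads to GRCm38 with STAR 2.6.1d and counted them with featureCounts 1.5.1 after FastQC 0.11.8, as their processing notes list. The settings for strand, multi-mapped reads and overlapping genes are not given in the sources used here. Libraries held 11371508 to 16829292 counts, so 3 counts, taken as the floor, were 0.165 to 0.296 CPM. This floor covers counting error only. No pair of the 40 replicate pairs agreed within sampling noise (chi-square per degree of freedom 2.31 to 24.4). Mitochondrial genes took 0.517% to 1.30% of counts.

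Groups came from the sample labels. All 20 libraries entered 1 fit of edgeR 4.0.16 (quasi-likelihood test, TMM, filterByExpr, 12799 genes, group as the only term), with Benjamini-Hochberg adjustment over all genes tested and a threshold of 0.05. The study's own test, DESeq2 (version 1.42.0 here), states no covariate and was an alternative. SE is the log2 fold change divided by the square root of F. The scripts were tested on simulated data. Labels give the batch as the replicate number, so numbers pair the cultures. Same-numbered cultures deviated from their group means with a mean correlation of 0.146 (range -0.214 to 0.394). The correlation was 0.122 to 0.394 between treatments at the same age. Between ages it was -0.214 to 0.275, and every such pair of batch 1 was below 0. The batch as a block was an alternative. Others were DESeq2 size factors, library sizes alone, no filter, a minimum of 10 counts in every library, only the groups compared, and each replicate number left out. Leaving out each library, and the per-kilobase length, were added after the data were seen. The members, gene lists and named-gene rule were chosen with earlier results of these data known. The rule names, for each comparison of groups, the 3 genes with the largest called change in each direction among listed genes with a mean of at least 1 CPM, and the 2 genes closest in pattern to each member. Locations came from the GRCm38 annotation and promoters from RefSeq (GRCm38.p6).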

Additional observations from a re-analysis of the deposited data

Results flagged for a closer look

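Of 40 sets of 5 cultures, 10 genes in 4 groups, 4 had a culture far from the others of its group by Dixon's criterion, where chance gives about 1 in 20. Young untreated culture 1 was highest for *Dgat2*, at 40.4 CPM, and for *Soat1*, at 589 CPM. The same culture had the highest sum of the genes listed to check the treatment among untreated cultures, 213 CPM. Young untreated culture 5 was lowest for *Dgat1*, at 25.5 CPM. Aged untreated culture 1 was highest for *Pnpla2*, at 74.1 CPM.

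The response to LPS differed between young and aged cultures for 2 of the 10 genes by edgeR's test of the difference itself. The difference, aged minus young, was -0.43 on the log2 scale for *Acsl1* and 0.32 for *Dgat1*. Both had the same sign in 5 of 5 batches, and most single libraries left out moved the adjusted p past 0.05, as given with each gene. The difference of *Soat1*, 0.092, also had 1 sign in 5 of 5 batches and was not called (edgeR adjusted p = 0.569).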

How the results depend on the processing

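The LPS responses of *Acsl1*, *Fabp4*, *Dgat2*, *Hilpda* and *Dgat1* and the lower *Fabp4* and *Acsl1* of aged LPS-treated cultures kept their direction and stayed called under every alternative run. Counts of called genes among the 10 moved as follows, and the cause was not tested. Between LPS-treated cultures, 0 were higher in aged ones with DESeq2, DESeq2 with the replicate block, DESeq2 size factors, only the groups compared, no low-count filter or a minimum of 10 counts in each library, beside 1437 to 1834 of all genes tested. With library sizes alone 2 were higher there, beside 3167 of all 12799 genes. Between the same cultures 4 were lower with DESeq2, with or without the replicate block, beside 2306 and 2105 of all genes. With library sizes alone 5 fell with LPS in aged cultures, beside 5473 of all genes. For the difference of the LPS responses, 0 of the 10 were higher with DESeq2, DESeq2 size factors or no filter, beside 455 to 582 of all genes tested. With a replicate number or library left out, the counts ranged from 0 to 1 (higher, untreated), 1 to 3 (lower, untreated), 0 to 1 (higher, LPS), 2 to 4 (lower, LPS) and 0 to 1 in each direction for the difference. Without a replicate number, 120 to 370 of all genes tested (12760 to 12829) were higher and 428 to 824 lower between untreated cultures. Between LPS-treated ones 960 to 1763 were higher and 1196 to 1798 lower. For the difference 148 to 516 were higher and 41 to 274 lower. *Pnpla2* between untreated cultures lost its call without replicate 2 (edgeR adjusted p = 0.0664).

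Of the other pathway genes, 2 were higher in aged untreated cultures with DESeq2, DESeq2 size factors, library sizes alone, at least 10 counts or only the groups compared, beside 476 to 639 of all genes tested. The count was 3 with the replicate block in edgeR and 4 with it in DESeq2, beside 768 and 836 of all genes. With library sizes alone 22 of the 43 fell with LPS in young and 16 in aged cultures, beside 6401 and 5473 of all 12799 genes. In that setting 12 were higher in aged LPS-treated cultures, beside 3167 of all genes. With at least 10 counts 3 were, beside 1688 of 11012. Without a replicate number the counts of pathway genes ranged from 1 to 2 (higher, untreated), 2 to 6 (lower, untreated), 9 to 13 (lowered by LPS, young), 1 to 3 (higher, difference) and 0 to 3 (lower, difference). LPS lowered 3872 to 4232 of all genes in young cultures in these runs, and the other ranges over all genes are given above.

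Values near 0 changed sign. *Plin2* went to -0.13 and -0.0024 for LPS in young and aged cultures with library sizes alone, and *Fabp5* to 0.0088 between LPS-treated cultures. *Hilpda* there was -0.0018, -0.0096 and -0.00065 with DESeq2, DESeq2 with the replicate block and DESeq2 size factors, and ranged from -0.063 to 0.082 without a replicate number. Such ranges were -0.026 to 0.41 for *Hilpda* and -0.091 to 0.018 for *Soat1* between untreated cultures, -0.22 to 0.015 for *Dgat2* and -0.00043 to 0.062 for *Soat1* between LPS-treated cultures, and -0.12 to 0.16 for *Plin2* and -0.35 to 0.041 for *Hilpda* in the difference of the LPS responses. The replicate block in edgeR called *Fabp5* lower in aged untreated cultures (adjusted p = 0.0191) and with LPS in aged ones (8.88e-04), and *Pnpla2* lower in aged LPS-treated ones (0.0415), and it changed no other call of the 10 genes.

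Other calls of single genes near the threshold moved as follows, by adjusted p. Library sizes alone called *Fabp5* (9.59e-04), *Soat1* (0.00163) and *Pnpla2* (6.06e-04) lower with LPS in aged cultures and *Lpl* higher in aged LPS-treated ones (0.0475). No filter called *Fabp5* lower with LPS in aged cultures (0.0339), and only the groups compared did so for *Pnpla2* (0.0421). *Pnpla2* was called lower in aged LPS-treated cultures with DESeq2 (0.0320), its size factors (0.0379) and at least 10 counts (0.0472). *Soat1* with LPS in young cultures was lost with DESeq2 size factors (0.0696) and only the groups compared (0.0562). The higher *Dgat1* level in aged LPS-treated cultures was lost with DESeq2 (0.102), its size factors (0.0656), no filter (0.142), at least 10 counts (0.0540) and only the groups compared (0.0964). The *Dgat1* difference was lost with DESeq2 (0.0545), its size factors (0.0614) and no filter (0.155). Without replicate 2, *Pnpla7* lost its call between untreated cultures (0.0550). Differences of the LPS responses were lost without replicate 2, 3, 4 or 5 for *Lpin1* (0.130, 0.0801, 0.0742 and 0.0515) and *Acss2* (0.210, 0.224, 0.0719 and 0.0863).

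Over all genes, calls between untreated cultures went from 1475 to 548 without replicate 2 and to 2254 with DESeq2 and the replicate block. Between LPS-treated cultures they went from 3718 to 2156 without replicate 2. For the difference they went from 818 to 189, 532 and 410 without replicates 2, 4 and 5, and to 1349 with DESeq2 and the replicate block. At these depths the least abundant of the 10 genes had 56 counts in its lowest library, and the smallest changes called, such as that of *Soat1*, depended on single libraries.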
